A study of Mus musculus with 12 samples.

Results

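Zeb1, Arhgap12, Kif5b and Epc1 lie next to each other near the start of mouse chromosome 18, and their copy number was measured in 12 liver tumors. They were selected on their tumor over non-tumor ratios in these same tumors, so their levels are given as a description without a test. The only test of a difference is a comparison of the groups fitted across all genes or probes. Since it uses the same ratios, its values for the 4 genes support nothing on their own. Dixon's criterion serves at the end to flag tumors that lie apart from their group, and nothing is concluded from it. The probes were found by the gene name in the array files: 9 of the 42235 probes with a position, for 4 of the 20630 gene names on the autosomes and X. The selection placed the genes between about 5 and 6.1 Mb of build NCBI36 (mm8), but only 4 of the 9 probes, those of Zeb1 and Arhgap12, end before 6.1 Mb. The 5 probes of Kif5b and Epc1 lie beyond it and were kept because their gene names are part of the selection.
All mice carried the Mdr2/KO genotype, which removes a phospholipid transporter of the bile canaliculus and leads to chronic liver inflammation and tumors, on the FVB strain background. The post-PHx group held 6 tumors, from 4 male and 2 female mice that were 9 months old and had undergone a 70% partial hepatectomy (PHx) at the age of 3 or 6 months. The spontaneous group also held 6 tumors, from mice without treatment: the 2 males were 14 months old and the 4 females 13 months. Array-based comparative genomic hybridization (aCGH) compared red-labelled DNA of each tumor with green-labelled DNA of liver outside the tumor, taken from the same animal, on 1 array per tumor without a dye swap. The groups therefore differed in age and sex as well as in surgery, and an alteration shared by tumor and reference liver does not show in the ratio. In bulk DNA, the share of cells that carry extra copies cannot be told apart from the number of copies per cell.
Zeb1 encodes a zinc-finger repressor that binds E-box sequences, silences the E-cadherin gene and drives epithelial to mesenchymal transition; it and the miR-200 family repress each other. Arhgap12 encodes a GTPase-activating protein. Kif5b encodes the widely expressed heavy chain of kinesin-1, the motor that carries cargo along microtubules. Epc1 encodes enhancer of polycomb homolog 1, a scaffold subunit of the NuA4/TIP60 histone acetyltransferase complex. Extra copies of a chromosome stretch commonly carry several neighbouring genes, whatever their roles.
The ratios are given as log2 of tumor over non-tumor, so that 0 is the middle of each array's autosomal probes. The spread between neighbouring probes, which measures the noise of an array, was 0.147 to 0.265. All 108 spots of the members (9 on each array) stood well above background in both channels, none was saturated and none was marked as an outlier. A mean log2 ratio of 0.4, or 1.32-fold, served as the filter for a gain.

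In the tumor Spon3F the 4 genes did not share a copy number. Zeb1 (5650260 to 5705111, 2 probes) stood at 3.08 ± 0.20 (SD over its probes), or 8.46-fold. Arhgap12 (6037031 to 6086688, 2 probes) stood at 3.16 ± 0.12, or 8.96-fold. Kif5b (6211058 to 6238309, 3 probes) stood at -0.06 ± 0.18 and Epc1 (6435972 to 6489011, 2 probes) at -0.22 ± 0.10. Thus the pair on the left was amplified and the pair on the right was not, although no probe lies in the 124.4 kb between them.
Single probes showed the same step. In Spon3F the probes of Zeb1 read 3.22 and 2.94 and those of Arhgap12 read 3.25 and 3.08. The probes of Kif5b read 0.13, -0.24 and -0.08, and those of Epc1 read -0.15 and -0.29. Every Zeb1 and Arhgap12 probe exceeded every Kif5b and Epc1 probe in this tumor, and the mean of the left pair exceeded that of the right pair by 3.25 on the log2 scale, or 9.51-fold. The split into these pairs was made after the values were seen.
A least-squares partition of the ratios along chromosome 18 placed Zeb1 and Arhgap12 of Spon3F in a segment of 15 probes from 5119030 to 6086688 (0.968 Mb) with a mean of 3.08. Before it stood a segment at 2.08, and the next segment began at the first Kif5b probe with a mean of -0.12. The drop of 3.20 at this end was thus larger than the rise of 1.01 at the start, which fell between neighbouring probes of Svil, the gene of the actin-binding protein supervillin. The only gene name with a probe between Zeb1 and Arhgap12 is the transcript AY423051, whose probe there read 2.85, while its probe at 6315388, beyond the step, read -0.27. On this array 2 of 20533 gene names stood higher than Zeb1 and 1 stood higher than Arhgap12, none of them on another chromosome. Hence the label of a shared peak fits Zeb1 and Arhgap12 in Spon3F, but not Kif5b and Epc1.

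**Figure D1:**
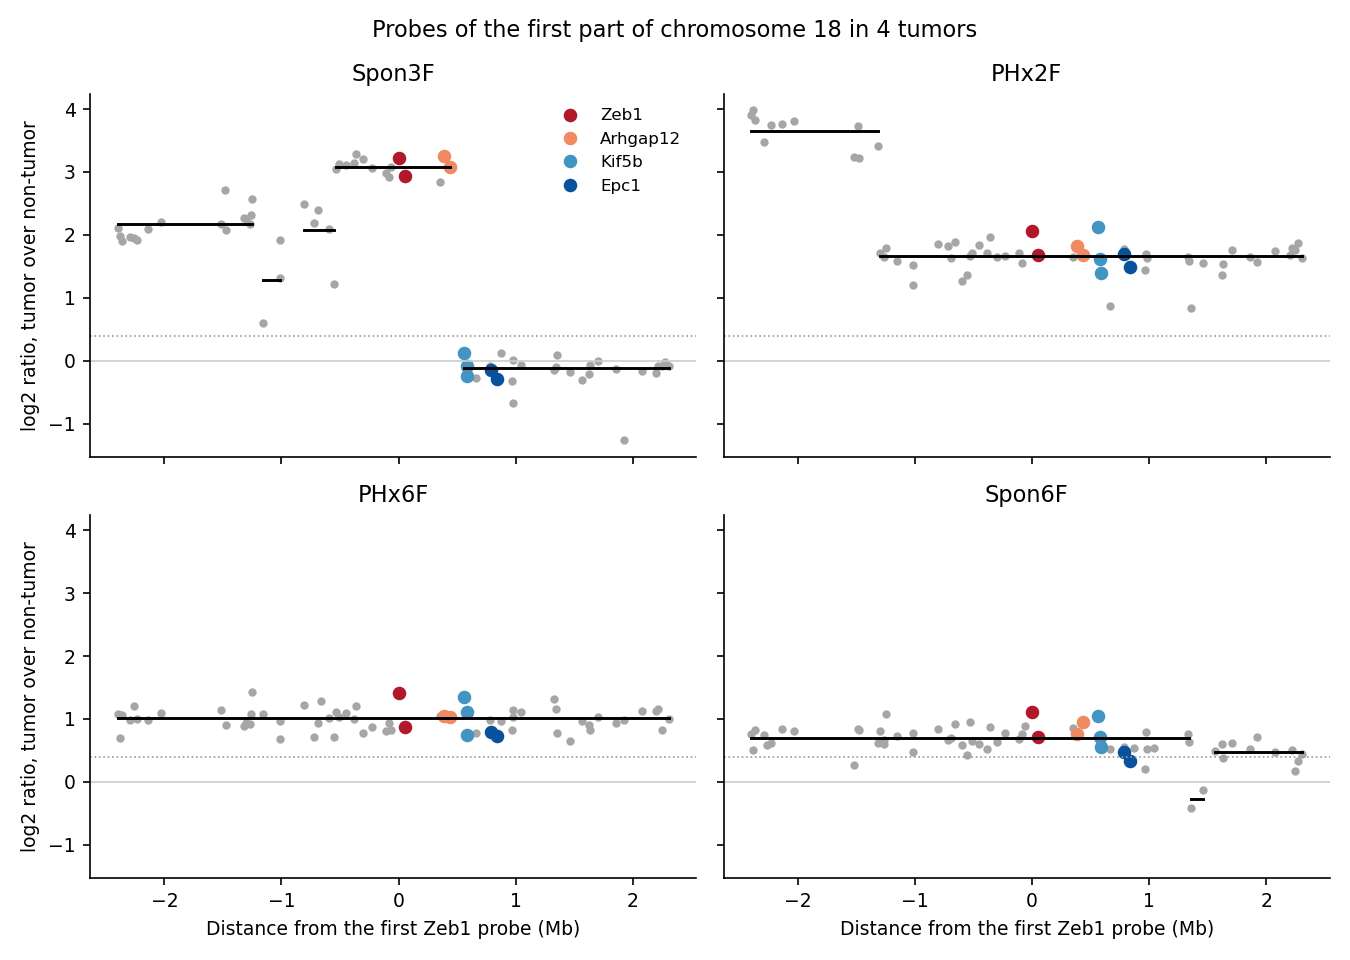
Log2 ratio of tumor over non-tumor liver for each probe (vertical axis) against its distance in Mb from the first Zeb1 probe (horizontal axis) in Spon3F, PHx2F, PHx6F and Spon6F. Coloured points are the probes of the 4 genes, grey points other probes, black lines segment means, and the dotted line the filter of 0.4; in Spon3F the ratio falls from 3.08 to -0.12 between Arhgap12 and Kif5b, while in PHx2F the highest stretch lies more than 1 Mb before Zeb1.

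In PHx2F all 4 genes were high. It held the second highest ratios of Zeb1 and Arhgap12, after Spon3F, and the highest of Kif5b and Epc1. Zeb1 stood at 1.87 (3.67-fold), Arhgap12 at 1.75 (3.37-fold), Kif5b at 1.71 (3.28-fold) and Epc1 at 1.59 (3.02-fold). The 4 genes lay in a segment of 84 probes from 4349202 to 10848815 with a mean of 1.67. The peak of the chromosome was elsewhere in this tumor, in a segment of 11 probes from 3254025 to 4331617 with a mean of 3.65, or 12.5-fold. It includes Crem, the gene of a cAMP-responsive transcription factor, which stood at 3.91 in PHx2F and at 1.95 in Spon3F.
The mean of Zeb1 and Arhgap12 minus that of the Crem stretch (the 16 probes up to 4.4 Mb) was -1.42 on the log2 scale in PHx2F and 0.96 in Spon3F. In the other 10 tumors the same difference lay between -0.12 and 0.25. The 2 tumors with the strongest amplification near the start of chromosome 18 therefore had their highest stretch at different genes.
In the order of Zeb1, PHx6F (1.14), Spon6F (0.91), PHx3M (0.83) and PHx1M (0.56) followed PHx2F. Next came Spon2M (0.44), PHx4M (0.36), Spon4F (0.35), PHx5M (0.30) and Spon1M (0.23), and Spon5F was last at -0.07. The gap from Spon3F to PHx2F was 1.21 and that from PHx2F to PHx6F 0.73, where 2 standard errors of array noise were 0.36 and 0.32. The largest later gap was 0.30, from Spon1M to Spon5F, where 2 standard errors were 0.38. These gaps are a description and no test, because the tumors were sorted by the same ratios that selected the gene. The noise is that of the arrays alone, as each tumor was measured once.
Arhgap12 followed nearly the same order. It stood at 1.04 in PHx6F, 0.86 in PHx3M and in Spon6F, 0.57 in PHx1M, 0.43 in PHx4M and 0.39 in Spon2M. It stood at 0.33 in Spon4F, 0.19 in PHx5M, 0.15 in Spon1M and -0.24 in Spon5F.
Kif5b stood at 1.07 in PHx6F, 0.86 in PHx3M, 0.77 in Spon6F, 0.42 in PHx4M and 0.41 in PHx1M. It read 0.29 in Spon2M, 0.27 in Spon1M, 0.25 in Spon4F, 0.21 in PHx5M and -0.08 in Spon5F, close to its -0.06 in Spon3F.
Epc1 stood at 0.76 in PHx6F and in PHx3M, 0.42 in PHx1M, 0.40 in Spon6F and 0.30 in PHx4M. It stood at 0.25 in Spon2M, 0.21 in Spon4F, 0.08 in Spon1M, 0.0011 in PHx5M and -0.29 in Spon5F. Epc1 was the lowest of the 4 genes in 11 of 12 tumors, and without Spon3F it stood 0.22 ± 0.13 (SD, n = 11 tumors) below Zeb1.

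**Figure D2:**
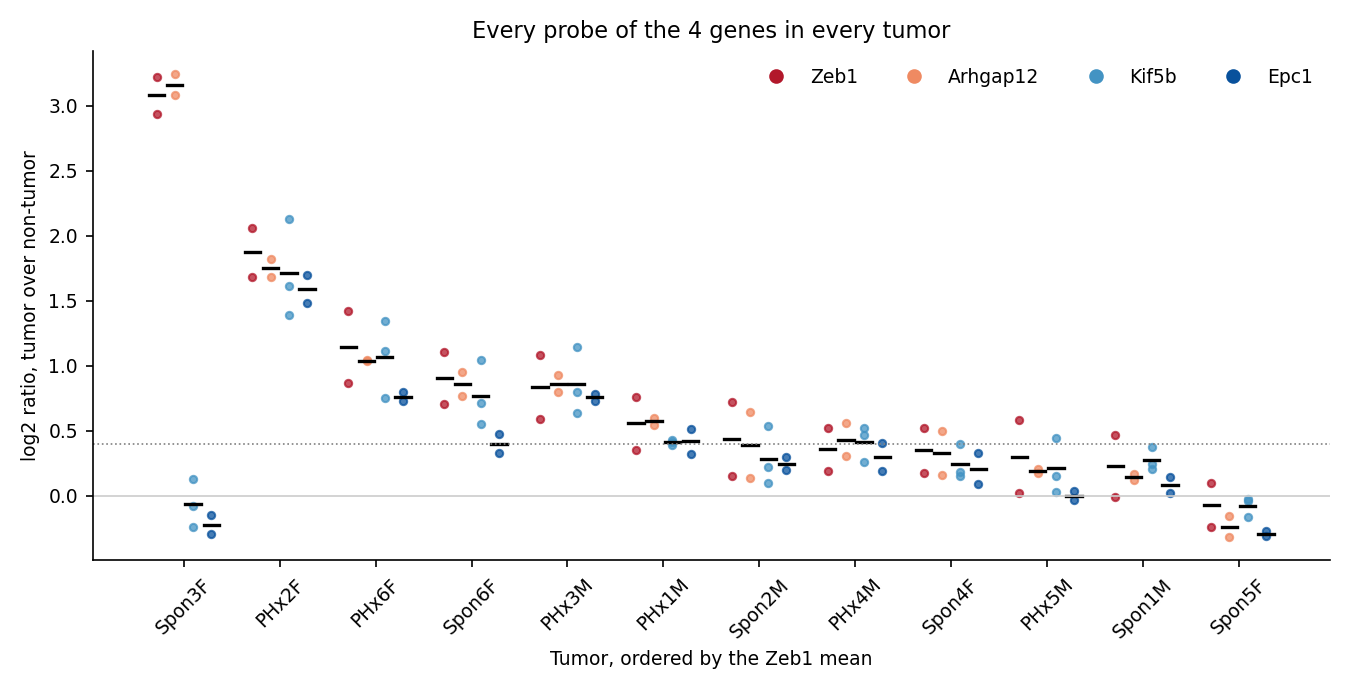
Log2 ratio of every probe of Zeb1, Arhgap12, Kif5b and Epc1 (points) and the mean of each gene (black bars) in each of the 12 tumors, ordered by the Zeb1 mean; the dotted line is the filter of 0.4. The 4 genes span at most 0.504 (in Spon6F) in every tumor other than Spon3F, where they span 3.38.

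Probes of the same gene also differed in a fixed direction, which limits small differences between the genes. The first Zeb1 probe exceeded the second in 12 of 12 tumors, by 0.28 to 0.57 (median 0.40). The first Kif5b probe exceeded the mean of its other probes in 12 of 12 tumors (median 0.32), and the first Epc1 probe exceeded the second in 12 of 12 (median 0.13). For Arhgap12 the first probe was higher in 8 of 12 tumors (median 0.08). Apart from Spon3F, the range over the 4 genes within a tumor was 0.10 to 0.50, which is of the size of these probe differences.
Apart from Spon3F, all 4 genes fell in 1 segment in each of the 11 tumors. The segment was shortest in Spon6F, with 54 probes over 3.74 Mb and a mean of 0.69. It ended there at a run of 2 probes at -0.27, beyond which segments at 0.48 and 0.77 reached to 10818056. With a stricter partition (penalty of 6 in place of 3) it held 102 probes over 7.56 Mb in Spon6F, and PHx4M had the shortest. At the penalty of 3 the segment spanned 4.70 Mb in PHx4M (mean 0.29), 10.6 Mb in PHx6F (1.02) and 13.7 Mb in PHx3M (0.80). It spanned 13.8 Mb in PHx1M (0.45) and 36.4 Mb in PHx5M (0.16). In Spon4F and Spon5F it spanned the whole measured chromosome, with means of 0.32 and -0.11. Spon1M (mean 0.19) and Spon2M (mean 0.26) had segments of 8.40 and 8.39 Mb, bounded on both sides by runs of 2 probes. These runs moved the opposite way in these tumors (-0.55 and -1.16 in Spon1M, 1.57 and 1.88 in Spon2M). When runs of 1 probe were allowed, each of them shrank to 1 probe. With a stricter partition (penalty of 6 in place of 3), the segment began at the first probe in both tumors. It then spanned 9.79 Mb in Spon1M and 54.2 Mb in Spon2M. At the penalty of 3 the segment began at the first probe of the chromosome in 8 of the 11 tumors.
The genes beyond the members repeated this pattern. Over the stretch of equal length (12 probes) to the right of Epc1, the 9 member probes exceeded the flank by 1.47 in Spon3F and by 0.0078 to 0.33 in the other 11 tumors. The 1.47 in Spon3F is a level of no member. It averages Zeb1 and Arhgap12 at 3.12 with Kif5b and Epc1 at -0.13, beside a flank at -0.15. Mkx, a homeobox gene in that stretch, stood at -0.12 in Spon3F and 1.62 in PHx2F, and Armc4 at -0.19 and 1.48. The single probe of X99249 read 0.08 and 0.83. To the left of Zeb1, Zfp438 stood at 3.21 in Spon3F and 1.84 in PHx2F, AK138232 at 2.99 and 1.63, and AK011593, whose probes start before the step, at 2.60 and 1.72.

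**Figure D3:**
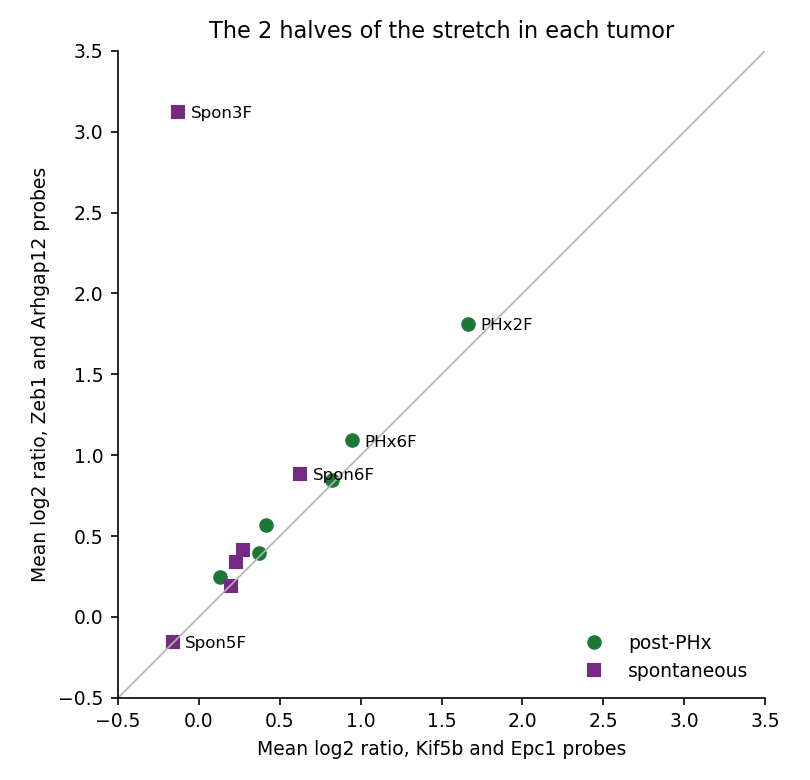
Mean log2 ratio over the 4 probes of Zeb1 and Arhgap12 (vertical axis) against that over the 5 probes of Kif5b and Epc1 (horizontal axis), with 1 point per tumor; the grey line marks equal values. The tumors follow the line except Spon3F, which stands at 3.12 against -0.13.

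Zeb1 and Arhgap12 had a Pearson r of 0.997 over the 12 tumors (0.991 without Spon3F), and Kif5b and Epc1 one of 0.976. Zeb1 and Kif5b had an r of 0.257, which was 0.989 without Spon3F and 0.974 without Spon3F and PHx2F. Zeb1 and Epc1 had an r of 0.241, and 0.969 and 0.922 without these tumors. Neighbouring genes share the array and mostly the segment, so these values describe the profile of 1 stretch. The low values between the pairs rest on Spon3F.
Among 11265 gene names with at least 2 probes, the 5 most like Zeb1 over the 12 tumors were all on chromosome 18: Arhgap12, AK138232 (r = 0.991), Zfp438 (0.989), AK011593 (0.983) and Svil (0.979). Svil itself stood at 2.19 in Spon3F and 1.61 in PHx2F. On other chromosomes the highest were Slc18a1 on chromosome 8 (0.850), Slc7a13 on chromosome 4 (0.791), Atp7b on chromosome 8 (0.787), H2-M1 on chromosome 17 (0.780) and Tnfsf8 on chromosome 4 (0.777). They are the top of a ranking over only 12 tumors. Without Spon3F their r was 0.727, 0.726, 0.525, 0.528 and 0.703 in this order. Without Spon3F and PHx2F it was 0.789, 0.777, 0.546, 0.270 and 0.498. None of these 5 exceeded 0.35 in Spon3F, against 3.08 for Zeb1. Crem had an r of 0.775 with Zeb1, and 0.923 without Spon3F.

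The signals of both channels were compared between arrays. In Spon3F the red (tumor) signal of the Zeb1 and Arhgap12 probes was 5.91 times the median of these probes over the 12 arrays, each array first scaled to its autosomal median, and the green (non-tumor) signal was 0.953 times it. For Kif5b and Epc1 in Spon3F the red signal was 0.764 times and the green signal 1.03 times the median. In PHx2F the red signals were 2.43 times for the left pair and 2.27 times for the right pair, with green signals of 1.02 and 0.926 times. In Spon3F for the left pair and in PHx2F for all 4 genes, the high ratios thus stood on the tumor channel. Over all arrays the green signals averaged over a pair lay between 0.878 and 1.13 times for the left pair and between 0.919 and 1.12 times for the right pair, and those of single genes between 0.772 and 1.29 times. The weaker gains were mixed by channel. In PHx6F the red signals were 1.55 (left pair) and 1.64 (right pair), beside green signals of 1.08 and 1.11. In PHx3M the red signals of the 4 genes were 1.27 to 1.34 and the green signals 0.923 to 1.14. In Spon6F Zeb1 had a red signal of 1.31 and a green signal of 1.04, and the right pair had 1.27 and 1.06. In these cases the red signal was the more raised. By contrast, Arhgap12 in Spon6F had a red signal of 0.984 and the lowest green signal, 0.772, and in PHx1M the left pair had 0.879 and 0.878. The median array is no state without a gain here, since the median log2 ratio of Zeb1 over the 12 tumors was 0.50.

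**Figure D4:**
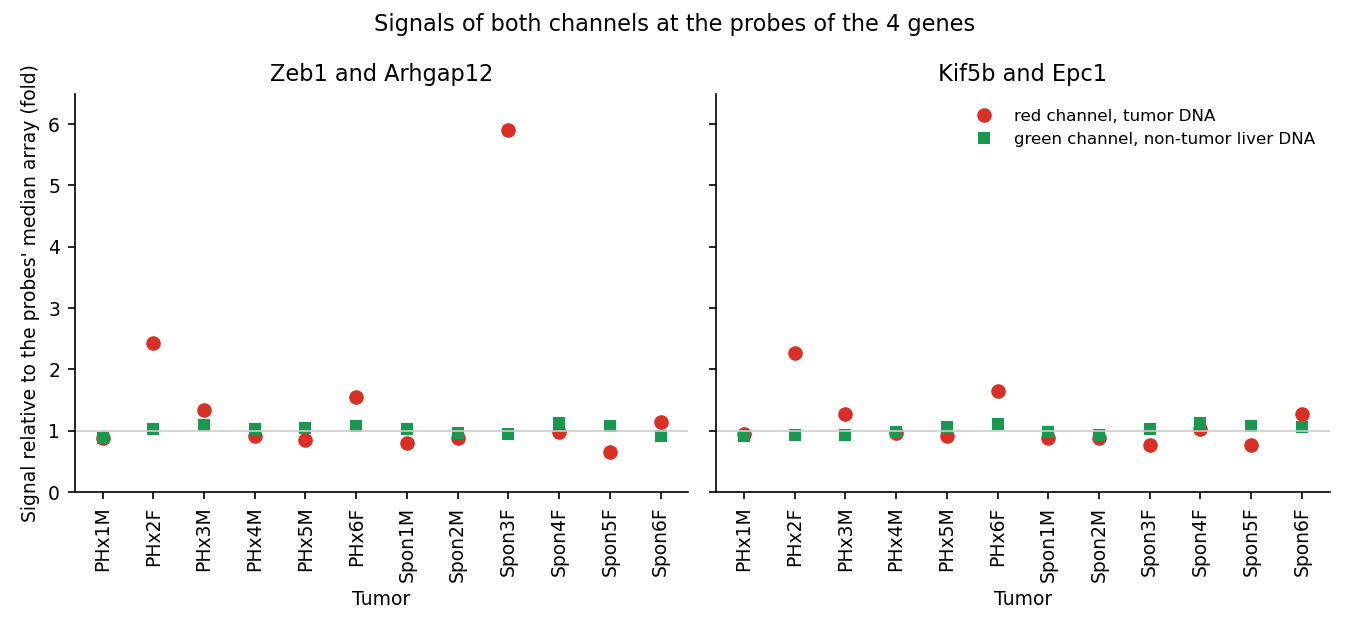
Red signal (tumor DNA) and green signal (non-tumor liver DNA) at the probes of Zeb1 and Arhgap12 (left) and Kif5b and Epc1 (right), as fold of the median of the same probes over the 12 arrays. The red signal reaches 5.91 for the left pair in Spon3F and 2.43 in PHx2F, while the green signal, averaged over a pair, lies between 0.878 and 1.13 in both panels.

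Counted by the filter of 0.4, the members passed in 25 of 48 values, 18 of 24 in post-PHx and 7 of 24 in spontaneous tumors, while 3.75% of all gene and tumor values passed. All 4 genes passed in PHx1M, PHx2F, PHx3M, PHx6F and Spon6F, where 2.73%, 3.02%, 5.85%, 1.53% and 1.12% of all gene names passed. In PHx4M 2 of 4 genes passed, Arhgap12 and Kif5b, beside 6.17% of all gene names. In Spon3F 2 of 4 passed, Zeb1 and Arhgap12, beside 0.818%. In Spon2M Zeb1 alone passed, beside 9.83%. None of the 4 passed in PHx5M (0.945% of all gene names), Spon1M (7.06%), Spon4F (3.22%) or Spon5F (2.69%). Because these ratios selected the members, nothing is read from the excess.
By gene, Zeb1 passed in 4 of 6 post-PHx and 3 of 6 spontaneous tumors, Arhgap12 in 5 and 2, Kif5b in 5 and 1, and Epc1 in 4 and 1. Nearest to the filter were Epc1 in Spon6F at 0.40, just inside, and Arhgap12 in Spon2M at 0.39, just outside. No member reached -0.4 in any tumor, beside 3.1% of all gene and tumor values at or below it, and nothing is read from this.

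Whether the genes differed between post-PHx and spontaneous tumors was tested with limma across all 20629 gene names with enough values, and 0% of them passed an adjusted p of 0.05, so that 0 of the 4 members did. At an unadjusted p under 0.05 there were 865 gene names, and the methods' t-test on the same values gave 847 before adjustment and 0 after it.
Zeb1 ranged from 0.30 to 1.87 (median 0.70) in the post-PHx tumors and from -0.07 to 3.08 (median 0.40) in the spontaneous ones. The groups overlapped, and Spon3F alone lay above all post-PHx tumors. The difference, post-PHx minus spontaneous, was 0.02 (SE 0.46, adjusted p = 0.999, limma). For Arhgap12 the ranges were 0.19 to 1.75 (median 0.72) and -0.24 to 3.16 (median 0.36), with a difference of 0.03 (SE 0.48, adjusted p = 0.997, limma).
Without Spon3F the differences were 0.47 (SE 0.26) for Zeb1 and 0.51 (SE 0.26) for Arhgap12, both with an adjusted p of 0.988 (limma). The means of this pair in the spontaneous group thus rest on Spon3F: for Zeb1 it was 0.82 ± 1.15 (SD, n = 6) with this tumor and 0.37 ± 0.36 (SD, n = 5) without it, beside 0.84 ± 0.59 (SD, n = 6) in the post-PHx group.
Kif5b ranged from 0.21 to 1.71 (median 0.64) in post-PHx and from -0.08 to 0.77 (median 0.26) in spontaneous tumors. The groups overlapped, and the difference was 0.54 (SE 0.23, adjusted p = 0.987, limma). Epc1 ranged from 0.0011 to 1.59 (median 0.59) and from -0.29 to 0.40 (median 0.15), with a difference of 0.57 (SE 0.22, adjusted p = 0.987, limma). Without PHx2F these differences were 0.36 (SE 0.18) and 0.38 (SE 0.16), both with an adjusted p of 0.999 (limma).
Per probe, 0% of 42230 probes passed, and 1681 had an unadjusted p under 0.05. The 4 probes of Zeb1 and Arhgap12 differed by -0.0043 to 0.05 between the groups and the 5 probes of Kif5b and Epc1 by 0.48 to 0.60.
The arrays stood on 3 slides, and only 1 of them held both groups (PHx5M, PHx6F, Spon5F and Spon6F). Within it, and equally with slide as a block, the differences were 0.30 for Zeb1, 0.30 for Arhgap12, 0.29 for Kif5b and 0.32 for Epc1, and Spon3F is not among these tumors. The block left SEs of 0.85, 0.87, 0.43 and 0.40.

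**Figure D5:**
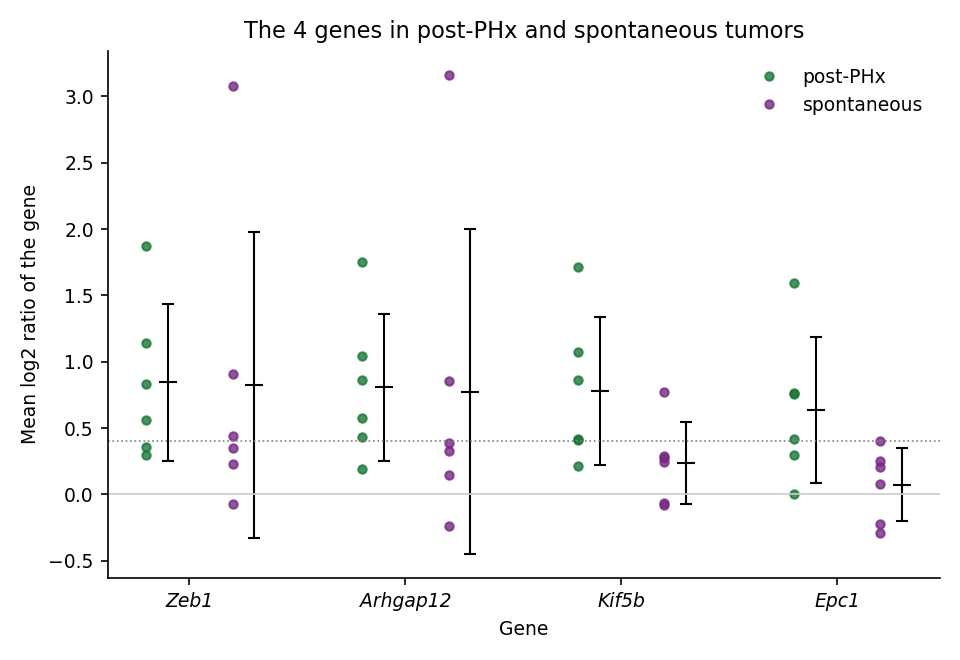
Mean log2 ratio of each gene in each post-PHx and spontaneous tumor (points), with the group mean and SD (bars, n = 6 each); the dotted line is the filter of 0.4. The groups overlap for all 4 genes, and the single spontaneous tumor at the top for Zeb1 (3.08) and Arhgap12 (3.16) is Spon3F.

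Genes that work with the members were looked up as well. Of these, Tcf4, Cdh2 and Brd8 lie on chromosome 18 too, where Cdh2, the gene of N-cadherin, reached 0.80 in PHx3M, beside a mean of 0.80 for the segment of the members. Of all gene and tumor values, 3.75% were at or above 0.4 and 3.1% at or below -0.4. Of 263 values of 22 regulators and targets of epithelial to mesenchymal transition, 12 (4.56%) were at or above 0.4 and 11 (4.18%) at or below -0.4. The highest was Esrp1, a splicing regulator of epithelial cells, at 1.51 in PHx2F. The lowest was its relative Esrp2 at -2.87 in Spon3F, which rests on 1 probe. E-cadherin itself (Cdh1) is in this list and stayed between -0.03 and 0.35.
Of 108 values of 9 measured genes of kinesin-1 and its adaptors, 3 (2.78%) were at or above 0.4 and 1 (0.926%) at or below -0.4. The light chain genes held both ends, Klc4 at 1.53 in Spon6F (1 probe) and Klc2 at -0.56 in Spon2M. Of 204 values of 17 NuA4/TIP60 genes, 12 (5.88%) were at or above 0.4 and 8 (3.92%) at or below -0.4. Ruvbl2, an ATPase of the complex, was highest at 1.02 in Spon2M (1 probe), and Meaf6 lowest at -1.09 in Spon3F. Of 72 values of 6 relatives and targets of Arhgap12, 0 were at or above 0.4 and 1 (1.39%) at or below -0.4, Cdc42 at -0.49 in Spon5F. The highest of them was Arhgap15 at 0.29 in Spon5F.
The medians over the genes' own medians were 0.0096, -0.013, 0.046 and -0.025 for the 4 lists in this order, beside -0.00028 for all gene names. No gene of these lists passed the limma test between the groups. An unadjusted p under 0.05 was found for 4 of 22, 0 of 9, 0 of 17 and 1 of 6 genes, beside 865 of 20629 gene names. Cdh2 on chromosome 18 is among the 4. The lists were written with earlier results of these data known, so nothing is read from these counts.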

How the data were processed

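The authors hybridized 12 tumors on 2-colour Agilent CGH arrays and deposited the output of Feature Extraction 10.5.1.1 (probes on NCBI36, mm8): processed red and green signal intensities, background-subtracted and dye-normalized, and the log10 ratio of red (tumor) over green. Other columns hold the signal intensities before correction, which the authors deposited too. The members and gene lists were chosen with earlier results of these data known. From the ratios on the log2 scale, controls and outlier-flagged spots (107 to 1212 per array) were removed, spots of a probe averaged and arrays centred on the autosomal median; a gene is the mean of its probes. Groups (GEO labels) were compared with lmFit and eBayes of limma 3.58.1 (R version 4.3.3), adjusting by Benjamini-Hochberg across all genes or probes. Chromosome 18 was partitioned with a penalty of 3 times the log of the number of probes times the noise variance and at least 2 probes. Both steps were tested on simulated data. Nothing says that the tumors of a group came from separate litters or cages, so p-values measure the spread between these tumors. Precision is limited by the number of tumors and of probes, as arrays hold no counts. Alternatives were normexp (offset 50), no centring or centring on the mode, outlier-flagged spots kept, only spots well above background, medians, at least 2 probes, filters of 0.25 and 0.6, penalties of 2 and 6, slide, sex or tumor number as a term, the methods' t-test and each tumor left out. Named were the members, their neighbours, the 5 genes most like Zeb1 (and 5 on other chromosomes), Crem and the extremes of each list. Cdh1 and the probes around the step were named after their values were seen. List genes were matched by RefSeq symbol or older name on the same chromosome. Exons and introns were not annotated. Python 3.11.15 ran the other steps.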

Additional observations from a re-analysis of the deposited data

Results flagged for a closer look

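In 22 groups of 6 values, the highest or lowest tumor lay apart from the others by Dixon's criterion in 8; chance gives this in about 1 of 20 groups of independent values. That rate cannot be set against the count here, because the genes were selected on these ratios, the pairs were formed after the values were seen, and most values come from the same probes. Spon3F lay apart among the spontaneous tumors for Zeb1 (3.08, next tumor 0.91) and Arhgap12 (3.16, next 0.86). It also lay apart for the left pair minus the right pair (3.25, next 0.26), the members minus the Crem stretch (-0.85, next -0.12) and the members minus the right flank (1.47, next 0.33). The differences of all members average the left pair at 3.12 with the right pair at -0.13. The left pair alone exceeded the Crem stretch by 0.96. The red signal of Spon3F at Zeb1 and Arhgap12 lay apart as well (5.91 times the probes' median, next 1.15). PHx2F lay apart among the post-PHx tumors for the members minus the Crem stretch (-1.50, next -0.02). The green signal at Zeb1 and Arhgap12 in PHx1M was the lowest of the post-PHx arrays (0.878 times the median, next 1.02).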

How the results depend on the processing

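No gene or probe passed between the groups under any alternative, the methods' t-test included (0 calls each). Zeb1's difference of 0.02 ranged from -0.18 (without PHx2F) to 0.47 (without Spon3F) when 1 tumor was left out, and Arhgap12's of 0.03 from -0.17 (without Spon5F) to 0.51 (without Spon3F); each turned negative without any 1 of 6 tumors, PHx2F, PHx6F, Spon1M, Spon2M, Spon4F and Spon5F. Kif5b's and Epc1's differences kept their sign in all fits, from 0.29 to 0.68 and from 0.32 to 0.69; without PHx2F they were 0.36 and 0.38, against 0.54 and 0.57. With sex as a term the differences were 0.31, 0.31, 0.68 and 0.68 in the order Zeb1, Arhgap12, Kif5b, Epc1. The tumor numbers do not pair the mice (deviations of same-numbered tumors correlated at -0.03 to 0.45, over 0.1 only for number 6), and with tumor number as a replicate block 0 genes and 0 probes passed. Epc1 passed a filter of 0.6 in 3 tumors, against 5 at 0.4. The other counts stayed within 1.5 times, also without Spon1M and Spon2M, an alternative chosen after seeing the data. They still moved: the main counts were 7, 7, 6 and 5 tumors in the order Zeb1, Arhgap12, Kif5b, Epc1. With normexp they were 9, 5, 4 and 5, and with a filter of 0.25 they were 10, 9, 8 and 6. After normexp correction the members minus the right flank became 0.41 in PHx2F, 0.40 in PHx3M and 0.19 in PHx6F. With medians over probes, the members minus the Crem stretch became -1.92 in PHx2F and -2.01 in Spon3F, and minus the right flank 0.25 in Spon3F, where the median falls on the side of Kif5b and Epc1. The segment of Zeb1 in Spon3F kept its ends and its mean of 3.08 under every penalty and minimum. Segments of other tumors did not all keep their ends. With the penalty of 6 the members' segment spanned 9.79 Mb in Spon1M, 54.2 Mb in Spon2M and 7.56 Mb in Spon6F. It spanned 11.4 Mb in PHx2F and 35.5 Mb in PHx5M. Of the recomputed levels of the 4 genes 287 stayed within array noise and 1 did not, Kif5b in Spon6F (0.56 after normexp, 0.77 otherwise). With 2 or 3 probes per gene and noise of 0.147 to 0.265, differences between genes of a tumor that are no larger than those between probes of 1 gene are not resolved.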
